A study of Mus musculus with 8 samples.

Results

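Phospholipase A2 enzymes were followed in the liver of mice lacking *Agpat3*, an acyltransferase that adds docosahexaenoic acid (DHA) to lysophosphatidic acid, from which membrane phospholipids are built. The family was taken as 7 genes, *Pla2g4a*, *Pla2g6*, *Pla2g7*, *Pla2g12a*, *Pla2g12b*, *Pla2g15* and *Pla2g16*, taken by gene name. Their transcripts matched 11 of the 56605 array probes that are not controls, and each of the 11 was well above background in all 8 livers. The groups were 4 *Agpat3* WT and 4 *Agpat3* KO males of the C57BL/6 strain at 10 weeks of age, untreated as far as the labels say, with frozen liver RNA of each mouse on its own array. Per the study, the KO is a global one, so that cells other than hepatocytes lacked the gene as well.

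Phospholipases A2 cut the fatty acid from the middle position of the glycerol backbone of a phospholipid, which leaves a free fatty acid and a lysophospholipid. The freed acid is often arachidonic acid (ARA) or DHA, the starting material of eicosanoids and related mediators, and the lysophospholipid can be refilled by other acyltransferases. In the liver these enzymes take part in remodelling membranes, in breaking down lipids in lysosomes and in clearing platelet-activating factor (PAF) from plasma. The question put to the arrays was therefore whether the transcripts of the releasing enzymes differed between WT and KO liver.

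The signals are log2 of the background-corrected fluorescence minus the 75th percentile of that array, so a value of 0 lies at the 75th percentile and a step of 1 is a doubling. Levels of different probes cannot be set against each other, since probes differ in how well they bind. A probe was tested with limma when all 4 arrays of either genotype read it well above background, which left 29067 probes. It was called at a fold change over 1.5 together with a Benjamini-Hochberg adjusted p under 0.2. Among all probes tested, 1.67% were called, 0.939% higher and 0.726% lower in KO, and the values of the genotypes did not overlap for 8.86%.

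*Agpat3* itself, read by its brighter probe, lay between 5.65 and 5.88 in WT and between -0.58 and 0.02 in KO, a log2 fold change of -6.12 (SE 0.14, adjusted p = 4.46e-07, limma), so the genotypes matched their labels. All 8 arrays lay on 1 slide, with WT in row 1 and KO in row 2, so row and genotype cannot be told apart. Hepatocyte markers summed to between 5635 and 6304 times the 75th percentile in WT and between 5605 and 6075 in KO, with 8 of 8 tested and 0 called. The labels do not say whether mice were littermates. The limma p-values set the difference between genotypes against the spread among mice of a genotype, and cannot separate genotype from row.

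*Pla2g16* was higher in KO liver, *Pla2g12a* was lower, and for the other 5 genes the values of WT and KO mice overlapped at every probe. Only the first probe of *Pla2g16* was called, at 1.59-fold, which is 1 of 11 probes, beside 1.67% of all probes tested. The fall of *Pla2g12a* passed the adjusted p but was 1.36-fold and therefore not called. The median log2 fold change over the 11 probes was -0.02, beside -0.03 over all probes tested, and single values ran from -0.44 to 0.67, with 5 above and 6 below 0. Without the fold threshold, 2 of 11 probes passed the adjusted p, where 4.14% of all probes did so. Non-overlapping values were seen at 3 of 11 probes, from 2 genes, beside 8.86% of all probes tested. The genes were chosen with earlier results of these data known, so these counts are a description.

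**Figure D1:**
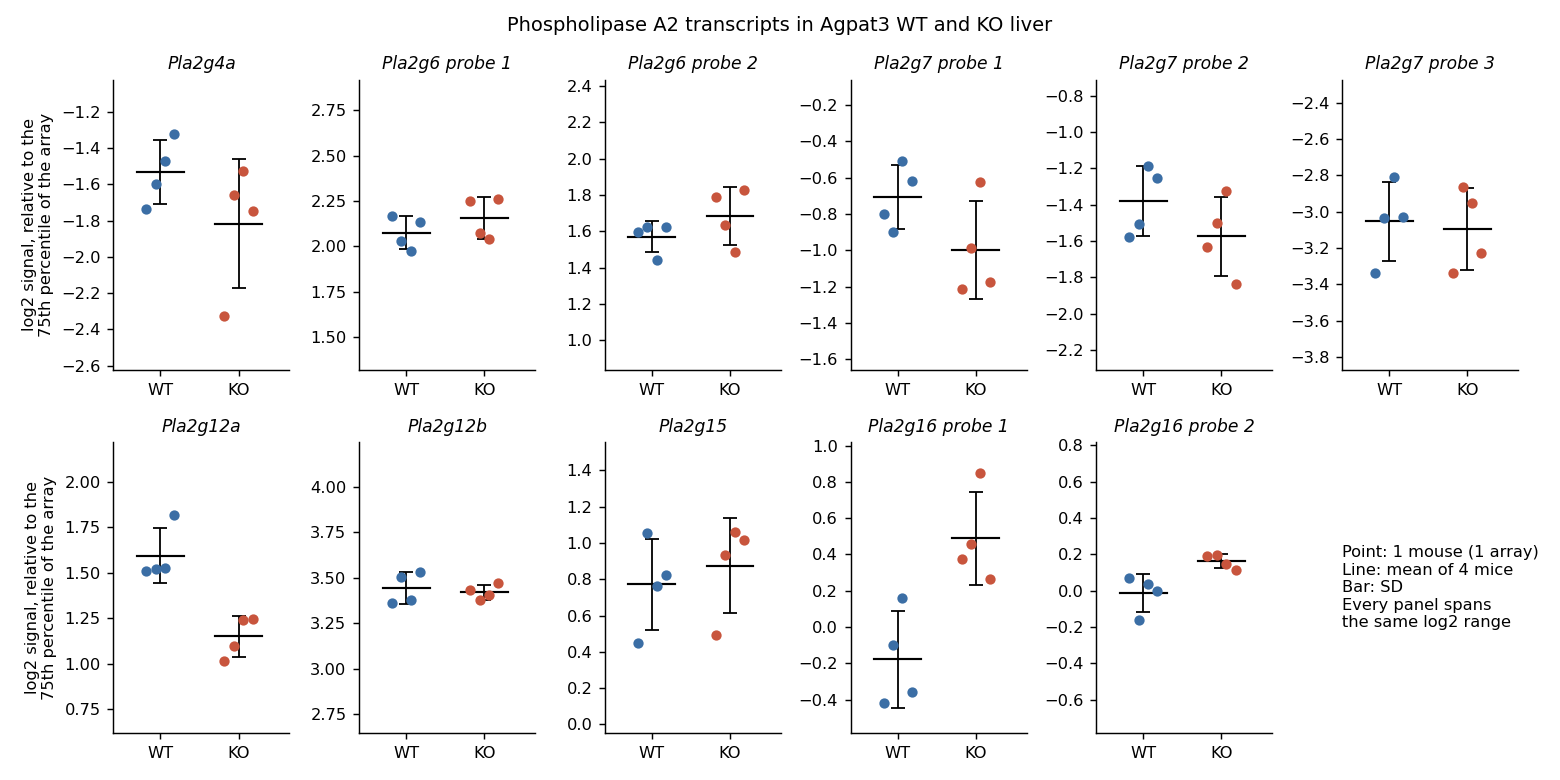
Log2 signal above or below the array's 75th percentile (y axis) for each of the 11 phospholipase A2 probes in WT (blue) and KO (red) liver, with 1 point per mouse, the mean as a line and the SD as a bar, every panel spanning the same log2 range. The genotypes are apart for *Pla2g12a* and for both probes of *Pla2g16*, and overlap in the other panels.

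For the 2 genes whose genotypes did not overlap, the 250 bases before an annotated start site are shown, since they are the pair on which the results turn. They were read 5′ to 3′ on the plus strand from RefSeq sequences of GRCm38.p6, with capitals marking any of 4 motifs searched on both strands. The *Pla2g16* stretch is chr19:7557209-7557458, and the RefSeq table gives a further start 26 bases downstream. The *Pla2g12a* stretch is chr3:129880934-129881183, and its start site is the only one given for the gene there and lies 2578 bases inside the annotated gene.
Pla2g16: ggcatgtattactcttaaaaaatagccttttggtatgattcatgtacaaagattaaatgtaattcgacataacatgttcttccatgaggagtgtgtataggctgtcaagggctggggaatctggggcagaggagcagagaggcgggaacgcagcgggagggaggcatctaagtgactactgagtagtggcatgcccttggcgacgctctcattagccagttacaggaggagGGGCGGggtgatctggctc
Pla2g12a: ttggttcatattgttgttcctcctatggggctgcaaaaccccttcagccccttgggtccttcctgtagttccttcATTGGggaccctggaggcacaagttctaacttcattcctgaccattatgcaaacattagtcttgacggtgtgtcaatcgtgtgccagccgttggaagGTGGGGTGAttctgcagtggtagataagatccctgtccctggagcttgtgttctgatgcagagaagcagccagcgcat
The motifs were the sterol regulatory element (TCACNCCAC), which SREBP factors bind, the E-box (CACGTG), the CCAAT box (CCAAT) and the GC box (GGGCGG), none of which contains another. Windows from 250 bases before to 50 bases after the start were searched, 9 for these genes and 32851 in all. The sterol regulatory element was present in the *Pla2g12a* window, on the minus strand from 78 bases before the start, and in 1.24% of all windows. *Pla2g16* had a GC box from 19 bases before its first start and none of the other motifs, while 35.7% of all windows have a GC box. A CCAAT box was found in 4 of the 9 windows (*Pla2g4a*, *Pla2g6*, *Pla2g12a*, *Pla2g15*) and in 37.4% of all, a GC box in 5 of the 9, and an E-box in 0 of the 9 and 7.15% of all. These matches are letters in a window, and the arrays give no binding at them.

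*Pla2g16*, listed in RefSeq as *Plaat3*, encodes a phospholipase A1/A2 best known from adipose tissue, where it breaks down phosphatidylcholine and restrains lipolysis. At its first probe the 4 WT livers gave log2 signals of -0.42, -0.10, 0.16 and -0.36. The 4 KO livers gave 0.38, 0.46, 0.85 and 0.27. Every KO liver was above every WT liver, the gap between the highest WT and the lowest KO mouse being small beside the spread within either genotype. The mean rose from -0.18 ± 0.27 to 0.49 ± 0.25 (SD, n = 4 each). The difference was 0.67 on the log2 scale with a 95% interval from 0.29 to 1.05 (adjusted p = 0.147, limma). The exact two-sided permutation p was 0.0286, the smallest that 4 against 4 mice allow. Every probe whose genotypes do not overlap gets this p, so it adds nothing to the lack of overlap.

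At the second probe of *Pla2g16* the WT livers gave 0.07, -0.16, 0.04 and -0.00, and the KO livers 0.19, 0.20, 0.15 and 0.11. Again no KO value fell within the WT range, but the step was far smaller. Its log2 fold change was 0.18 with a 95% interval from 0.01 to 0.34, or 1.13-fold, and it was not called (adjusted p = 0.346, limma). The log2 fold changes of the probes thus differed by 0.49, and whether they read different transcripts was not tested, since no probe sequence or position was used here. The first probe is the brighter by its mean over all arrays and stands for the gene, whereas the second is the brighter by its mean in WT. The mean of both gave 0.42 and did not reach 1.5-fold. Its adjusted p was 0.0980 (limma), adjusted over named genes and not over all probes tested.

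The call of *Pla2g16* lay near the adjusted p threshold of 0.2 and was lost when most of the mice were left out singly. It was kept without WT replicate 3 (0.78) and without KO replicate 4 (0.74), and lost without WT replicate 1 (0.59), 2 (0.69) or 4 (0.61) or KO replicate 1 (0.70), 2 (0.68) or 3 (0.55), at adjusted p of 0.205 to 0.277 (limma). Normexp background correction, which adds an offset of 50 and so shrinks fold changes, most at dim probes, gave 0.54. That is under 1.5-fold, at an adjusted p of 0.0863 (limma). Without a filter on dim probes the adjusted p was 0.342 (limma). The log2 fold change was positive throughout, and with 1 array left out it was under 1.5-fold only without KO replicate 3.

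*Pla2g16* is abundant in adipocytes, and 3 of 7 adipocyte markers were tested. Their log2 fold changes lay between -0.10 and 0.17 and 0 were called, and *Adipoq*, *Plin1*, *Cfd* and *Retn*, which define the cell type best, were not tested because neither genotype had them well above background on every array. The summed level of the 3 was 5.23 to 7.53 times the 75th percentile in WT and 5.99 to 6.96 in KO. In whole liver, a change in the number of cells of a type and a change in RNA per cell cannot be told apart.

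*Pla2g12a* encodes a small secreted phospholipase A2 of group XII. The 4 WT livers gave log2 signals of 1.51, 1.52, 1.53 and 1.82. The 4 KO livers gave 1.01, 1.10, 1.24 and 1.24. All KO livers were below all WT livers, and WT replicate 4 stood above the other 3 WT mice. The mean was 1.59 ± 0.15 in WT and 1.15 ± 0.11 in KO (SD, n = 4 each). The difference was -0.44 on the log2 scale with a 95% interval from -0.67 to -0.22 (adjusted p = 0.110, limma; exact permutation p = 0.0286). Without WT replicate 4 the difference was -0.37, with an adjusted p of 0.128 (limma). In no setting tried did it reach 1.5-fold, its values running from -0.48 to -0.37. The adjusted p rose above 0.2 without WT replicate 2 (at the threshold) or 3 (0.227), without KO replicate 1 (0.212) or 2 (0.245), and with no filter on dim probes (0.282, limma).

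**Figure D2:**
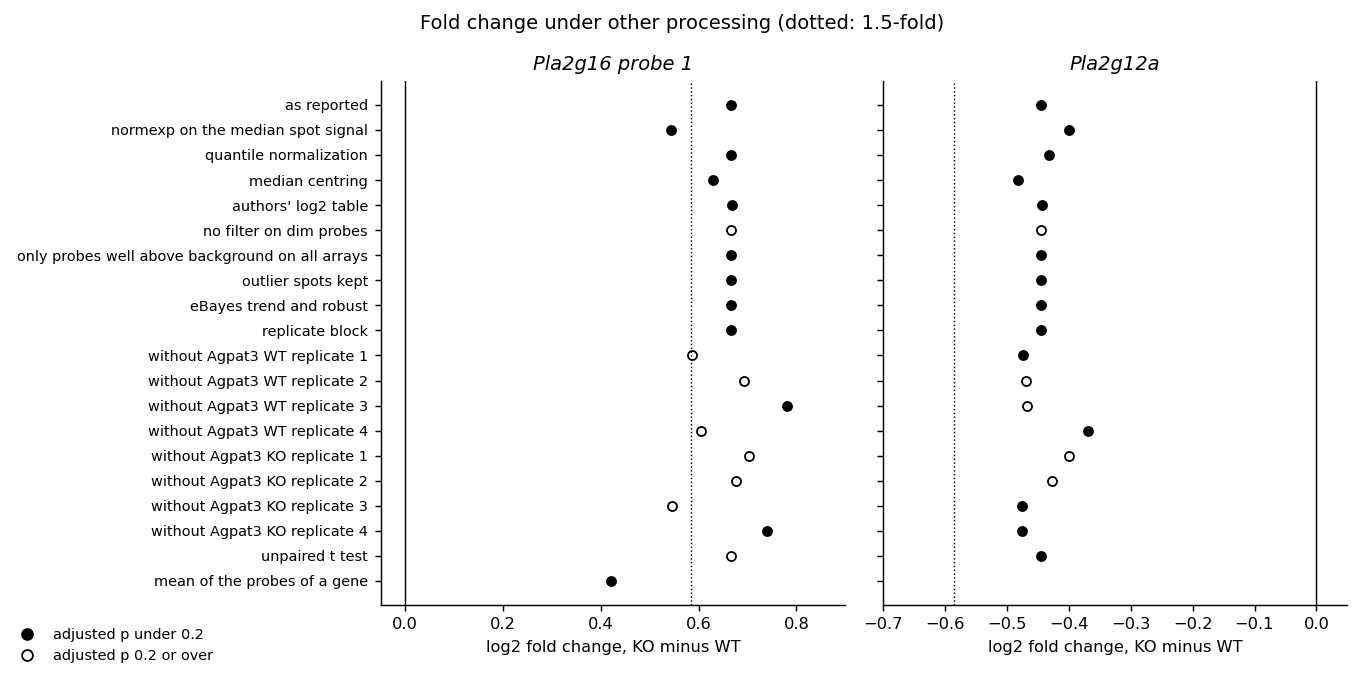
Log2 fold change, KO minus WT (x axis), of the first probe of *Pla2g16*, or in the last row the mean of its probes (left), and of *Pla2g12a* (right) as reported and under each other processing or with 1 array left out, filled where the adjusted p is under 0.2 and open where it is not, with 1.5-fold dotted. The first probe of *Pla2g16* runs from 0.54 to 0.78, on both sides of the dotted line, the mean of its probes is at 0.42, and *Pla2g12a* stays between -0.48 and -0.37, inside it.

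Another protein of group XII, PLA2G12B, lacks the catalytic activity of its relatives and is known for its part in loading lipid onto lipoproteins in the liver. Its WT signals were 3.36, 3.50, 3.38 and 3.53 on the log2 scale, and its KO signals 3.43, 3.38, 3.40 and 3.47. The KO values lay wholly within the WT range. The log2 fold change of -0.02 had the narrowest 95% interval of the 11 probes, from -0.18 to 0.13 (adjusted p = 0.919, limma), so that a change of 1.5-fold in either direction lies outside it. This gene and *Pla2g12a* were the pair of the family with secreted group XII products, and both were detected in every liver.

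The other secreted phospholipases A2 were mostly not detected. Of 10 further genes listed with the secreted phospholipase A2 family, 9 had a probe and 0 were tested. *Pla2g1b*, *Pla2g2d*, *Pla2g2f*, *Pla2g3*, *Pla2g5*, *Pla2g10* and *Oc90* were not well above background on any array, and *Pla2g2c* and *Pla2g2e* were so on 1 KO array each.

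*Pla2g4a* encodes the cytosolic enzyme that calcium draws to membranes and that prefers phospholipids carrying ARA. The WT livers gave log2 signals of -1.74, -1.60, -1.47 and -1.32, and the KO livers -2.33, -1.66, -1.53 and -1.75. KO replicate 1 was the lowest of the 8, and the other KO mice lay within or just below the WT range. The log2 fold change was -0.28 with a 95% interval from -0.69 to 0.12 (adjusted p = 0.544, limma), which includes both 0 and 1.5-fold lower. Without KO replicate 1 it was -0.11 (adjusted p = 0.744, limma).

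*Pla2g6* encodes the calcium-independent enzyme of the patatin family, active in membrane upkeep and at mitochondria. Its first probe gave log2 signals of 2.17, 2.03, 1.97 and 2.13 in WT and of 2.25, 2.07, 2.04 and 2.26 in KO. The second gave 1.60, 1.62, 1.44 and 1.62 in WT and 1.79, 1.63, 1.48 and 1.83 in KO. The KO values began inside the WT range, and the highest WT mouse was exceeded by 2 KO mice at the first probe and by 3 at the second. The log2 fold changes were 0.08 (95% interval -0.11 to 0.27, adjusted p = 0.733) and 0.11 (-0.10 to 0.33, adjusted p = 0.660, limma), and neither interval reaches 1.5-fold.

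*Pla2g15* encodes the lysosomal phospholipase A2, which degrades phospholipids under acid conditions. Log2 signals were 0.45, 1.06, 0.76 and 0.82 in WT and 0.49, 0.93, 1.06 and 1.02 in KO. In both genotypes replicate 1 was the lowest, and the ranges lay almost on top of each other. The log2 fold change was 0.10 with a 95% interval from -0.27 to 0.48 (adjusted p = 0.835, limma).

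*Pla2g7* encodes plasma PAF acetylhydrolase, which removes the acetyl group of PAF and short oxidised chains of phospholipids and is made largely by macrophages. The first of its 3 probes gave log2 signals of -0.80, -0.90, -0.51 and -0.62 in WT and of -1.21, -0.99, -0.62 and -1.17 in KO. There, 3 of the 4 KO livers were below every WT liver, and KO replicate 3 lay among them. The log2 fold change was -0.29 (95% interval -0.63 to 0.04, adjusted p = 0.444, limma). The second probe ran from -1.58 to -1.18 in WT and from -1.84 to -1.33 in KO, with -0.19 (-0.50 to 0.11, adjusted p = 0.592, limma). The third ran from -3.34 to -2.81 and from -3.34 to -2.86, with -0.04 (-0.37 to 0.29, adjusted p = 0.928, limma). The log2 fold changes of the probes were spread over 0.25, all 3 were below 0, and none passed the test.

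Macrophage transcripts were read beside *Pla2g7*. Of 12 Kupffer cell and macrophage markers all 12 were tested, and only *Marco*, a scavenger receptor, was called. *Marco* ran from 2.49 to 3.52 in WT and from 1.33 to 2.25 in KO, a log2 fold change of -1.22 (SE 0.25, adjusted p = 0.0983, limma). That call was lost without WT replicate 3 (-1.06) and without KO replicate 2 (-1.21), at adjusted p of 0.212 and 0.216 (limma). It was also lost without a filter on dim probes (adjusted p = 0.233, limma). The median over the list was -0.08, and the summed level was 113 to 187 times the 75th percentile in WT and 96.7 to 159 in KO. KO replicate 1 had the lowest macrophage sum of the 8 mice and also the lowest *Pla2g7* value at the first probe. The lowest mouse was KO replicate 4 at the second probe (-1.84) and WT replicate 1 at the third (-3.34). The part of these cells in *Pla2g7* was not tested. Over the marker lists of neutrophils and monocytes (5 of 10 tested), lymphocytes (7 of 10), endothelial (8 of 8), stellate (8 of 8) and bile duct cells (3 of 6) and pancreatic acinar cells (3 of 8), 0 genes were called, and the summed levels of WT and KO overlapped in every one. A sum gives most weight to the brightest genes. The median log2 fold change was -0.37 for neutrophils and monocytes (-0.89 to 0.35), and between -0.14 and 0.01 for the other lists. An unadjusted p under 0.05 (limma) was found for 3 of 8 stellate, 1 endothelial and 1 bile duct marker. Single stellate markers ran from -0.95 to 0.50.

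**Figure D3:**
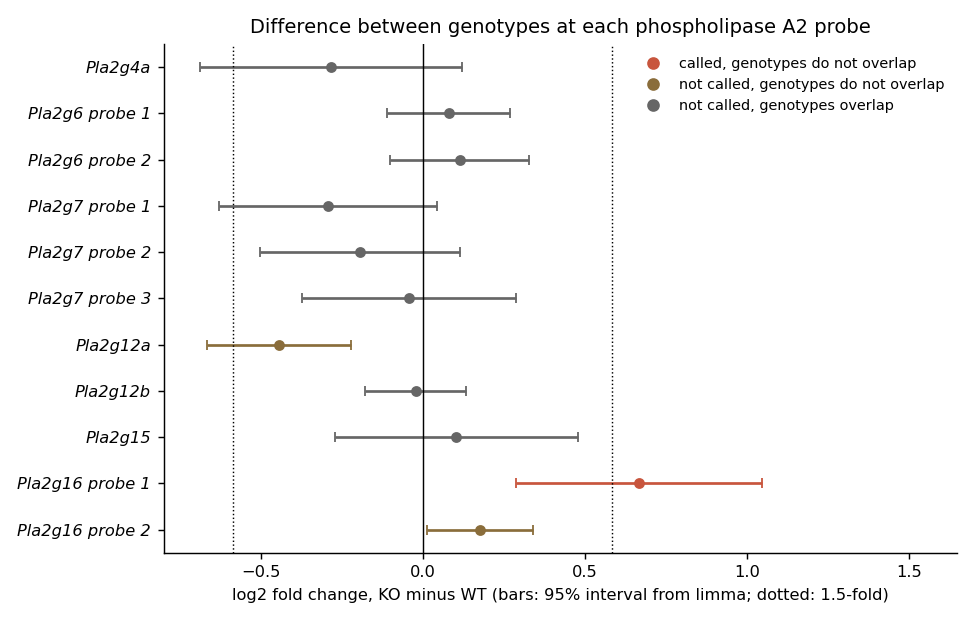
Log2 fold change, KO minus WT (x axis), of the 11 probes of the 7 phospholipase A2 genes as points with the 95% interval from limma as bars and 1.5-fold dotted on either side of 0. The first probe of *Pla2g16* lies at 0.67, beyond the dotted line, *Pla2g12a* at -0.44 and the second probe of *Pla2g16* at 0.18 have intervals clear of 0, and the other 8 intervals include 0.

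The rest of the pathway was described with 11 lists of 114 genes, of which 82 were tested, each by its brightest probe. Of these, 0 were called higher and 1 lower, where 1.67% of all probes tested were called. Genotypes did not overlap for 6 genes (7.32%), beside 8.86% of all probes tested. *Pla2g4c*, which passed the filter through WT alone, is 1 of the 6. The median log2 fold change was 0.00, beside -0.03 over all 14065 genes tested. The called gene was *Gdpd1*, a lysophospholipase D among 14 of 15 lysophospholipases tested, which ran from -2.85 to -2.34 in WT and from -3.47 to -2.89 in KO. Its log2 fold change was -0.59 (SE 0.15, adjusted p = 0.159, limma), just past 1.5-fold. The call was kept without WT replicate 1 (-0.68) or KO replicate 3 (-0.69) and lost without WT replicate 2 (-0.58), 3 (-0.60) or 4 (-0.51) or KO replicate 1 (-0.64), 2 (-0.49) or 4 (-0.54). With normexp, whose offset of 50 shrinks the fold changes of dim probes, the log2 fold change was -0.11. *Gdpd1* was also not called with the replicate number as a block (adjusted p = 0.223), without a filter on dim probes (0.367) or with the unmoderated test (0.248, the others limma).

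Among the enzymes closest to the family, the cytosolic *Pla2g4c* was well above background in all 4 WT livers and in 0 of the 4 KO livers. It was not called, and it was tested only because WT passed the filter. As reported, the bound on its fall in KO was 1.21-fold, for signals near background. Its adjusted p of 0.0765 (limma) is no support for a difference, as the filter passed it through WT alone. With normexp its log2 fold change was -0.08, but the offset of 50 shrinks differences near background, so this value cannot be set against the bound. The adjusted p was 0.210 without the filter on dim probes and 0.239 with the eBayes options (limma). The bound sets the WT mean against the lowest signal that counted as above background on the KO arrays, or the probe's own signal where that was higher. *Pla2g4b*, the other of the 5 cytosolic genes that was tested, gave -0.02. Of the patatin-domain enzymes all 3 were tested and 0 called. *Pnpla7*, a lysophospholipase abundant in liver, lay between 5.28 and 5.44 in WT and between 5.67 and 5.80 in KO, with no overlap and a log2 fold change of 0.37 (SE 0.07, adjusted p = 0.0741, limma) that stayed under 1.5-fold. *Pnpla6* gave -0.07 and *Pnpla8* -0.10.

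The PAF acetylhydrolases beside *Pla2g7* gave log2 fold changes of -0.09 (*Pafah1b2*), 0.21 (*Pafah1b3*) and -0.09 (*Pafah2*), with 4 of 4 genes tested and 0 called. In the list of other phospholipases, 11 of 15 were tested and 0 called. There *Lipg*, endothelial lipase, gave 0.77 (SE 0.38, adjusted p = 0.429, limma), with a spread in WT of 0.72 (SD, n = 4), and *Prdx6* and *Lcat* gave -0.08 and -0.09.

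Of the listed acyltransferases that act on lysophospholipids, 6 of 10 were tested and 0 called. *Lpcat3*, which favours ARA, gave 0.35 (SE 0.13, adjusted p = 0.295, limma), *Lpgat1* 0.23 and *Lpcat4* -0.08, with overlapping genotypes at each.

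Downstream of the release of ARA, the cyclooxygenase list had 9 of 11 genes tested and 0 called. *Hpgd*, which inactivates prostaglandins, gave 0.55 (SE 0.20, adjusted p = 0.288, limma), *Ptges* 0.14 and *Ptgds* -0.62. The lipoxygenase list had 5 of 12 tested and 0 called, with *Lta4h* at 0.07, *Ltc4s* at 0.12 and *Alox12b* at -0.14. Of the epoxygenase list 14 of 15 were tested and 0 called. In it *Cyp2c38* ran from 6.72 to 6.91 in WT and from 7.05 to 7.17 in KO, a log2 fold change of 0.29 (SE 0.07, adjusted p = 0.132, limma), while *Cyp2c55* gave 0.41 and *Cyp2j5* -0.12.

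Binding partners and regulators of phospholipases A2 had 14 of 14 genes tested and 0 called. Among those with the smallest p were *Hnf4a*, a hepatocyte transcription factor, with a log2 fold change of -0.33 (SE 0.12, adjusted p = 0.276, limma), and *Plaa*, the phospholipase A2 activating protein, at -0.11.

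**Figure D4:**
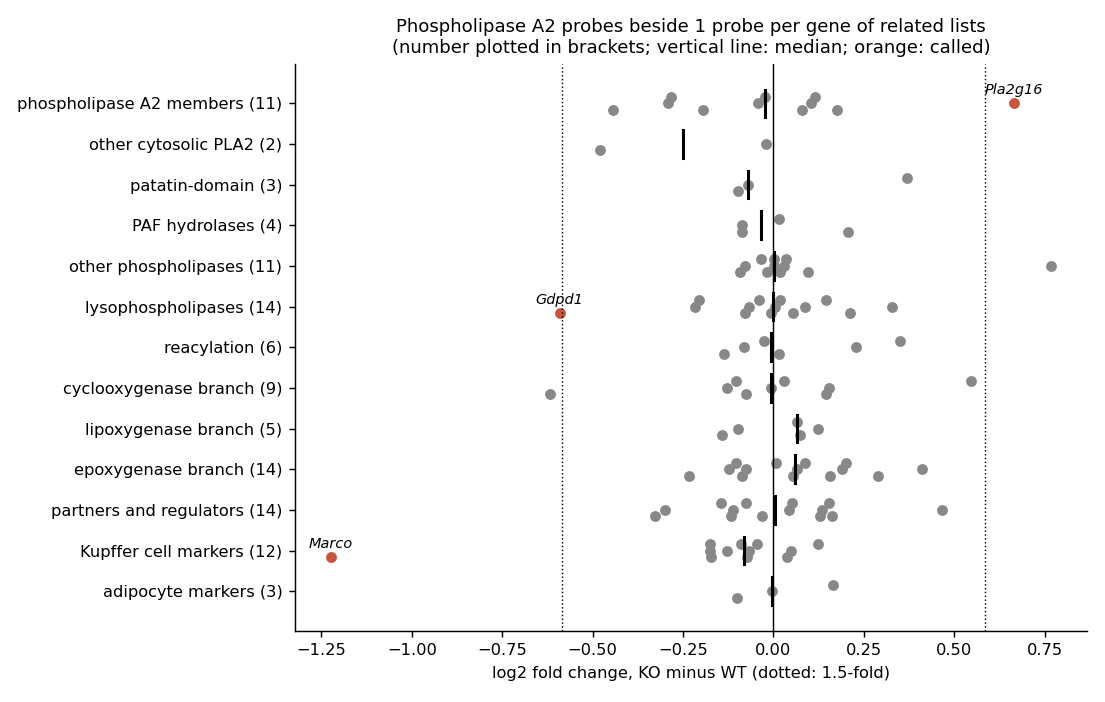
Log2 fold change, KO minus WT (x axis), of the 11 phospholipase A2 probes (top row) and of 1 probe per gene for 10 related lists and 2 marker lists, the number plotted in brackets, the median of each row as a short vertical line, called genes in orange and 1.5-fold dotted. *Pla2g16*, *Gdpd1* and *Marco* are the called genes, and the row medians stay near 0 except for the 2 other cytosolic enzymes.

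To place the pattern over mice, the log2 signals of *Pla2g12a* and of the first probe of *Pla2g16* were correlated over the 8 arrays with those of 14051 genes. The 3 genes nearest to *Pla2g12a* were *Ccdc6* (Pearson r = 0.989), *Gm13629* (0.979) and *Atp6v1e1* (0.975). Those nearest to *Pla2g16* were *Pak1* (0.972), *Prxl2a* (0.969) and *Pofut1* (0.968). These are the highest of many correlations over 8 points that share a slide and fall into 2 genotypes, and they are a description only. *Gm13629* and *Pak1* were called themselves, at -1.26 and 0.66, whereas the other 4 were not, with log2 fold changes between -0.21 and 0.18.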

How the data were processed

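Liver RNA of 4 *Agpat3* WT and 4 *Agpat3* KO mice was labeled with Cy3 and hybridized to single-color Agilent arrays. The authors deposited the spot intensity of every array from Agilent Feature Extraction 10.7.1.1, whose processed signal is background-corrected fluorescence on a linear scale, and a table of log2 values, which lay close to the log2 of that signal minus the 75th percentile of the array, single probes departing by up to 0.54. The intensity at that percentile was 261 to 309, 29885 to 31886 probes per array were well above background, and 0 spots were saturated. Arrays have no read depth, and their number limits the precision. Groups follow the genotype of the labels.

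Controls and outlier spots (86 to 150 per array, 0 of them at the phospholipase A2 probes) were left out, spots of a probe were averaged, and the 75th percentile over all non-control probes was subtracted from the log2 signal. The genotypes were compared at 29067 probes, those that all 4 arrays of either genotype read well above background. The test was limma 3.58.1 (lmFit, eBayes, two-sided) under R 4.3.3, with p-values adjusted by Benjamini-Hochberg. The thresholds follow a legend of the study in which an adjustment of p is not stated, and the array methods themselves were not given in the sources used here. Exact permutation tests used scipy 1.17.1. Names came from RefSeq transcripts of GRCm38.p6, which matched 32994 of 56605 probes, and a gene of a list was read from its brightest tested probe. Cross-hybridization between related genes was not tested.

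The text names every probe of the 7 genes, *Agpat3*, and of each of the 20 lists the called genes, or for pathway lists without a call the 3 with the smallest p, and the 3 nearest genes by correlation. A gene covered by this rule is not reported here. The genes and lists were chosen with earlier results of these data known, and the lists were written from general knowledge. The test was tried on simulated data. The alternatives covered the background (normexp, offset 50), the scaling (median, quantile, or the log2 table as deposited), dim probes (all kept, or a stricter filter), outlier spots, the variance model (trend and robust, or an unpaired test without moderation), a replicate block, each array left out, the thresholds, and averaging the probes of a gene.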

Additional observations from a re-analysis of the deposited data

Results flagged for a closer look

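Among 22 sets of 4 mice, 1 for each phospholipase A2 probe and genotype, 2 held a mouse far from the other 3, past the 95% critical value of Dixon's test, which sets the gap to the nearest against the range. Chance gives about 1 in 20. For *Pla2g12a*, WT replicate 4 was at 1.82 on the log2 scale, where the other WT mice were between 1.51 and 1.53. For the second probe of *Pla2g6*, WT replicate 3 was at 1.44, where the others were between 1.60 and 1.62. In the genes of the lists, 18 of 278 sets held such a mouse.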

How the results depend on the processing

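The main processing called 1 phospholipase A2 probe, 2 genes of the lists and 484 probes in all. These counts were 0, 1 and 245 with normexp, 0, 0 and 253 without a filter on dim probes, 0, 1 and 269 with the unmoderated test, 0, 0 and 117 at an adjusted p under 0.05, and 2, 5 and 1202 without a minimum fold. With an unadjusted p under 0.2 they were 1, 8 and 985. Leaving out 1 array in turn gave 0 to 1, 0 to 3 and 250 to 610. The *Pla2g16* call was kept with either other scaling, the table as deposited, the stricter filter, outlier spots and the eBayes options. The direction turned for values near 0, to 0.015 with normexp for the third probe of *Pla2g7* and to 0.0071 with quantile normalization for *Pla2g12b*. With 1 array left out, *Pla2g15* ran from -0.0055 (without WT replicate 1) to 0.23, *Pla2g12b* from -0.050 to 0.0069 (without WT replicate 4), and the third probe of *Pla2g7* from -0.14 to 0.040 (above 0 without WT replicate 3, KO replicate 1 or KO replicate 4). The cause of these shifts was not tested.

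Same-numbered mice were not treated as pairs, since the labels do not tie them. The correlation of their deviations was 0.33, -0.11, 0.10 and 0.32 for replicates 1 to 4, and 5 of 8 arrays were nearest to their own number, so a shared factor behind some numbers was not excluded. With the replicate number as a block, 592 probes, 1 phospholipase A2 probe and 2 list genes were called, *Gdpd1* not among them, and the adjusted p of the first *Pla2g16* probe was 0.0603 (limma).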
